A study of Mus musculus with 4 samples.

Results

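The comparison of papain with Dulbecco's phosphate-buffered saline (DPBS) in the lungs of wild-type (WT) mice was examined across all sorted immune cells, with attention to the cells other than CD4+ T cells. Its members were the 15096 cells of the libraries titled Papain-WT and DPBS-WT that held more than 200 genes and under 15% mitochondrial UMIs and were not called doublets, of 25982 such cells in the 4 libraries of the series. DPBS WT gave 7613 cells and Papain WT gave 7483. Both groups were male C57BL/6 mice aged 5 to 10 weeks that carried floxed Ift20 alleles (Ift20 f/f) without Cre, so "WT" here means Ift20 f/f and not an unmodified strain. Papain mice received 25 µg papain into the nose on 3 consecutive days and again on day 14, and lungs were taken on day 15, whereas DPBS mice received the buffer. Live lung cells, negative for 7-AAD and positive for CD45.2, were sorted and made into 1 droplet library a group with 10x 3′ version 3 chemistry. Ift20 f/f CD4 cre mice (KO), in which the CD4 promoter drives Cre in T cells of both lineages from their double-positive stage, were treated alike and are given only side by side. The number of mice behind a library is not stated in the sources used here.

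Papain is a cysteine protease that damages the airway epithelium when inhaled. The epithelium then releases alarmins such as IL-33, which act on group 2 innate lymphoid cells (ILC2) and T helper 2 cells, and the IL-13 and IL-4 these cells make act on macrophages and dendritic cells (DCs) through STAT6. Alveolar macrophages clear surfactant in the air space and renew themselves there, whereas interstitial macrophages sit in the tissue and are replaced in part from blood monocytes. Classical monocytes and neutrophils enter from the blood within hours of an insult.

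The libraries held 75675956 UMIs (DPBS WT) and 74536080 UMIs (Papain WT), with medians of 5858 and 6217 UMIs in a kept cell, and shared 16 cell barcodes of 8552 and 8444. Clusters were named from marker lists, and each name ending in "-like" rests on these markers. Library-wide, Il4 had 16 UMIs in DPBS WT and 191 in Papain WT, Il5 had 29 and 186, and Il13 had 25 and 734. Ighe had no UMI in either library. With 1 library a group there is no replicate check. Levels are counts per 1000000 UMIs of the class (CPM), from UMIs summed over its cells. The brackets after a log2 ratio (Papain over DPBS) are exact 95% intervals. These intervals cover counting error only, neither the spread between mice nor that between libraries. For genes they also leave out the spread between the cells of a class. A gene was counted as higher or lower when it differed by at least 2-fold and had 50 or more UMIs over both libraries in that class.

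Shares of several classes differed between the libraries: neutrophil-like, interstitial macrophage-like and DC-like cells were more frequent in Papain WT, and NK-like, CD8 T-like and alveolar macrophage-like cells were less frequent. Each library is a sample of sorted cells, so a share does not give the number of cells in the lung. A higher share of some classes lowers the shares of others. Neutrophil-like cells, first responders that carry S100a8 and S100a9, were 119 of 7613 cells in DPBS WT (1.56%, exact 95% binomial interval 1.30 to 1.87) and 339 of 7483 in Papain WT (4.53%, 4.07 to 5.03), a log2 ratio of 1.54 [1.23, 1.85]. NK-like cells went the other way, from 158 (2.08%, 1.77 to 2.42) to 56 (0.748%, 0.566 to 0.971), a log2 ratio of -1.47 [-1.94, -1.02]. CD8 T-like cells were also less frequent, at 1009 (13.3%) and 655 (8.75%), log2 -0.60 [-0.74, -0.46]. That difference lay in 1 cluster that went from 528 to 238 cells and in a smaller one that went from 238 to 162, while another cluster held 174 and 177.

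Most antigen-presenting myeloid classes were more frequent in the Papain library. Interstitial macrophage-like cells numbered 47 (0.617%) in DPBS WT and 116 (1.55%) in Papain WT, log2 1.33 [0.83, 1.85]. Conventional DC type 2-like cells, which present allergen to CD4+ T cells, numbered 41 and 83 (log2 1.04 [0.49, 1.62]), and type 1-like cells, which cross-present to CD8+ T cells, numbered 23 and 45 (0.99 [0.24, 1.79]). Mature DC-like cells, the Ccr7-bearing migratory state, numbered 19 and 48 (1.36 [0.57, 2.21]), and plasmacytoid DC-like cells 8 and 20 (1.35 [0.10, 2.74]). A further 7 and 18 cells were conventional DC-like with mixed markers. Classical monocyte-like cells went from 2.29% (174 cells) to 3.68% (275 cells), log2 0.69 [0.41, 0.97]. Nonclassical monocyte-like cells, which patrol vessel walls, went from 5.0% (381 cells) to 6.41% (480 cells), log2 0.36 [0.16, 0.56], and 101 and 131 cells were monocyte-like with mixed markers. Intervals of the rarest classes span several fold, so their sizes are loose.

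The other large lymphoid classes had similar shares in both libraries, while the small plasma-like and gamma-delta T-like classes did not. B-like cells were 29.9% (2278 cells) and 28.3% (2120 cells), a log2 ratio of -0.08 whose interval [-0.16, 0.01] includes 0. Plasma-like cells were 6 and 23 (log2 1.96 [0.63, 3.55]). ILC2-like cells were 69 (0.906%) and 81 (1.08%), and their interval [-0.23, 0.74] also includes 0. CD4 T-like cells were 16.6% and 18.5%. Gamma-delta T-like cells were 69 and 111 (log2 0.71), but 81 of the 111 came from a cluster whose cells also had Cd4 UMIs. When each cell was named from its own marker scores, only 7 and 2 such cells remained, and the ratio was -1.78. A total of 59 and 102 T cells had no single call, and 327 and 310 cells stayed unnamed.

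**Figure D1:**
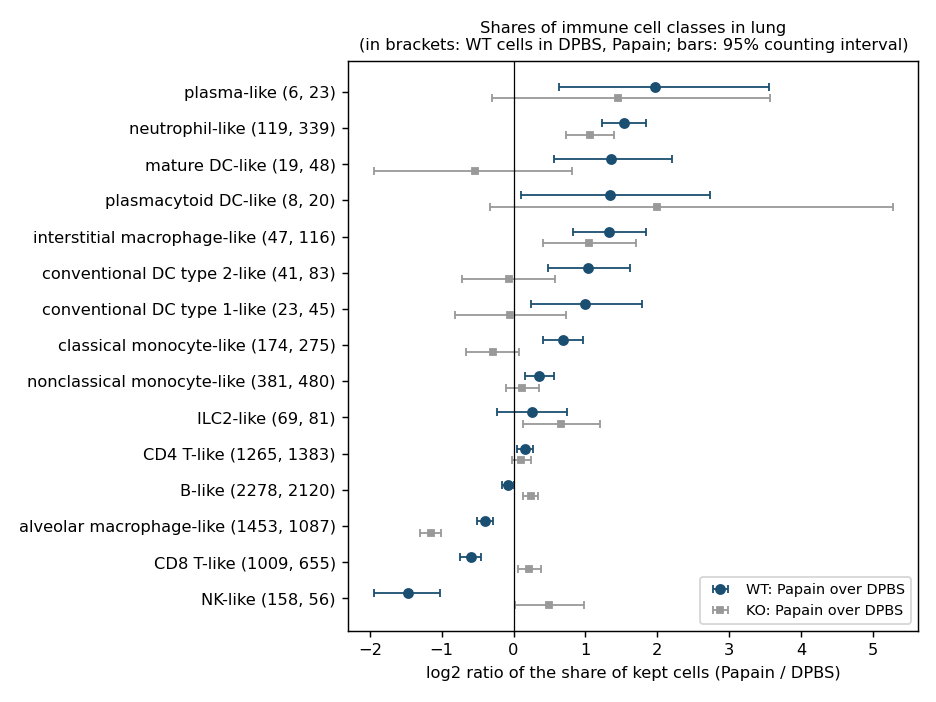
Log2 ratio of each class's share of kept cells, Papain over DPBS, in WT (1 library a group) and, for comparison, in KO mice; bars are exact 95% intervals that cover counting error only. In WT, neutrophil-like, interstitial macrophage-like and DC-like classes lie above 0 and NK-like, CD8 T-like and alveolar macrophage-like classes below it.

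Eosinophils, basophils and mast cells, effector cells of allergic inflammation, were nearly absent from both libraries. No cell of 7613 or 7483 had 3 or more of 6 eosinophil markers, which allows shares of up to 0.0394% and 0.0401%, and Epx, eosinophil peroxidase, had 0 and 1 UMI. The study counted eosinophils by flow cytometry in lungs of papain-treated WT mice, so these shares describe the libraries and not the lung. Basophil markers (3 of 6) were met by 3 cells in DPBS WT and 0 in Papain WT, and mast cell markers (3 of 5) by 2 and 0. Epithelial markers were met by 67 and 36 cells, endothelial markers by 5 and 2, fibroblast markers by 0 and 2, and erythroid markers by 0 and 3. Alveolar macrophage-like cells held 2758 of 3302 epithelial marker UMIs in DPBS WT and 1850 of 3203 in Papain WT. Naming each cell from its own marker scores gave 0 and 3 epithelial cells.

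Alveolar macrophage-like cells were 19.1% of cells in DPBS WT (1453 cells) and 14.5% in Papain WT (1087 cells) (log2 -0.39 [-0.51, -0.28]), and many of their genes differed. Of 10942 measured genes, 358 (3.27%) were at least 2-fold higher in Papain WT and 66 (0.603%) at least 2-fold lower, against a median log2 ratio of -0.06 over all measured genes. Their sum of 424 became 83 when the libraries were clustered without integration, 207 with cell-by-cell names and 264 at resolution 1.4. Some of the highest ratios belonged to genes that were close to absent in DPBS WT. Fbp1, the gluconeogenic enzyme fructose-1,6-bisphosphatase, had 0.0358 CPM (1 UMI) in DPBS WT and 90.8 CPM in Papain WT, and Rnase2a, an eosinophil-associated ribonuclease, had 0.143 and 122 CPM, log2 9.73 [8.37, 11.61]. AA467197 (log2 5.91) and Mmp12, the macrophage elastase (8.45 to 302 CPM, log2 5.16 [4.97, 5.35]), were higher too. Apoe, the lipid carrier, went from 43.5 to 420 CPM (log2 3.27 [3.18, 3.36]), the tetraspanin Cd63 from 163 to 538 CPM (1.72), and Wfdc17, a small antiprotease-like protein, from 55.6 to 240 CPM (2.11). Cd93 (log2 1.99) and the growth factor Igf1 (1.89) were higher as well. The 2 genes lower under the same rule were Epcam, an adhesion molecule (50.2 to 18.2 CPM, log2 -1.47 [-1.64, -1.29]), and the acyl-CoA thioesterase Acot1 (105 to 49.9 CPM, log2 -1.07).

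Genes of alternative activation, which IL-4 and IL-13 induce in macrophages, stood out in this class. Of 14 measured genes of that list, 7 were at least 2-fold higher and 0 lower, and its median log2 ratio was 0.98. Chil3, the chitinase-like protein Ym1, was high in both libraries and went from 11959 to 35093 CPM, log2 1.55 [1.55, 1.56]. The chemokine gene Ccl17, whose product draws CCR4-bearing T helper cells, had 1.36 CPM in DPBS WT and 201 CPM in Papain WT (log2 7.2 [6.74, 7.70]). Arg1, which breaks down arginine, had 27 UMIs and 1509 UMIs (log2 6.46), and Retnla, the secreted protein RELMα, had 7 and 610 UMIs (7.10). Ccl24, eotaxin-2, had 0 UMIs in DPBS WT and 1426 in Papain WT. With a floor of 3 UMIs set in place of the 0, its log2 ratio was 9.55, which is not an exact lower limit. The mannose receptor gene Mrc1 differed little (782 and 795 CPM, log2 0.02).

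Promoters of the alternative activation list were read from RefSeq on GRCm38.p6, whether or not a member moved in macrophages. Each sequence runs from 250 bases before to 50 bases after the start of transcription. The motif TTCNNNNGAA, to which STAT6 binds, was searched on both strands (it is its own reverse complement), and capitals mark the match. It was found in 3 of the 16 list genes with a promoter to search, against 6.95% of 32851 mouse promoters of the same length. Only these 3 are printed. Other members that moved, such as Arg1, Chil3 and Ccl24, had no match or no promoter to search. The sequences are Ccl17 at chr8:94810203-94810502, Retnla at chr16:48842359-48842658 and Pdcd1lg2 (PD-L2, a checkpoint ligand measured in interstitial macrophage-like cells) at chr19:29410669-29410968, all on the plus strand. A match is a description of these letters and not evidence of binding.
Ccl17: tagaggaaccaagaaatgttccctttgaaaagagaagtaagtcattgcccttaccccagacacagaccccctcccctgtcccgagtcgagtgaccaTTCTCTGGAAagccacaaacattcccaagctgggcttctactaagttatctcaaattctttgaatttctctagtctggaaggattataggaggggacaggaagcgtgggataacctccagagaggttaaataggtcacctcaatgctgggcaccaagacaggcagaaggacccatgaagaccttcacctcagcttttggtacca
Retnla: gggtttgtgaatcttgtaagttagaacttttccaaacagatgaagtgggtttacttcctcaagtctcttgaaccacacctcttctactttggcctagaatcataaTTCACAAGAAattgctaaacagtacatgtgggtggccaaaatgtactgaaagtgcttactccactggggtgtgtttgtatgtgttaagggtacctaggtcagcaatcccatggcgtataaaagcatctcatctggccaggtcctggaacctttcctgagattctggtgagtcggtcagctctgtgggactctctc
Pdcd1lg2: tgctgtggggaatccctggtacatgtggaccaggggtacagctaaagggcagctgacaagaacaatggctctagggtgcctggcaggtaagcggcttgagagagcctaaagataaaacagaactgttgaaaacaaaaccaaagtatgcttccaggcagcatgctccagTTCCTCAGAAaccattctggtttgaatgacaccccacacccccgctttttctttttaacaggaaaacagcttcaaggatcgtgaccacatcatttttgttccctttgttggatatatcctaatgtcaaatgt

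The alveolar macrophage-like class of the Papain library was not of 1 kind. When the libraries were clustered without integration, 1433 of 1453 DPBS WT cells of the class (98.6%) were again alveolar macrophage-like, but 656 of 1087 Papain WT cells (60.4%) were. Of the other 431 Papain WT cells, 131 were named interstitial macrophage-like and 290 were left unnamed. In that clustering, 3 groups of macrophages were more frequent in Papain WT than in DPBS WT, and they are named here by a leading gene. The Fbp1 cells numbered 1 in DPBS WT and 110 in Papain WT (1.47% of cells), the Apoe cells 2 and 183 (2.45%), and the C1qa cells 27 and 192 (2.57%). Their median depths in Papain WT were 16990 UMIs, 18217 UMIs and 3227 UMIs. All 110 Fbp1 cells, 180 of the Apoe cells and 130 of the C1qa cells belonged to the alveolar macrophage-like class. These groups were defined on the same cells, so the levels below describe them and test nothing.

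The Fbp1 cells had the highest Chil3 of the groups compared. Chil3 stood at 11981 CPM in the DPBS WT cells that were alveolar macrophage-like in both clusterings, at 22895 CPM in such cells of Papain WT, and at 91216 CPM in the Fbp1 cells, 46934 CPM in the Apoe cells and 28272 CPM in the C1qa cells. Krt79, a keratin of alveolar macrophages, was 596 CPM in DPBS WT and 764 CPM in the Fbp1 cells, but 12.6 CPM in the Apoe cells. Other alveolar macrophage genes went both ways in the Fbp1 cells. Marco was lower than in DPBS WT, at 127 against 301 CPM, and so was Ear1, at 259 against 894 CPM. Higher ones included Car4 at 885 against 694 CPM, Ear2 at 3016 against 1864 CPM and Fabp4 at 343 against 256 CPM. Fbp1 itself was 775 CPM in the group named for it, 24.0 CPM in the Apoe cells and 21.9 CPM in the C1qa cells. Ccl17 was 1369 CPM in the Fbp1 cells, 204 CPM in the Apoe cells and 1599 CPM in the C1qa cells.

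The Apoe cells had low levels of some alveolar macrophage genes and high levels of some genes tied to lipid-handling and inflammatory macrophages. Siglecf, a sialic acid lectin that marks alveolar macrophages, was 187 CPM in the DPBS WT cells, 48.1 CPM in the Fbp1 cells, 13.5 CPM in the Apoe cells and 26.3 CPM in the C1qa cells. Marco, a scavenger receptor, was 301 CPM in DPBS WT and 11.4 CPM in the Apoe cells. Other genes of these macrophages differed less, with the fatty acid-binding protein gene Fabp4 at 212 CPM in the Apoe cells against 256 CPM in DPBS WT, the ribonuclease gene Ear2 at 949 against 1864 CPM and Mrc1 at 500.3 against 782 CPM. Apoe was 1897 CPM there, Trem2, a lipid receptor, 504 CPM against 58.5 CPM in DPBS WT, and Gpnmb 875 CPM against 255 CPM. Not every lipid gene was higher: the lipase gene Lpl was 595 CPM in the Apoe cells against 2672 CPM in DPBS WT. The Apoe cells also held the most Il6 (305 CPM against 18.5 CPM in DPBS WT), with Il1b at 1723 CPM against 225 CPM, and Itgam, the integrin CD11b, at 155 CPM against 2.77 CPM.

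Summed over the C1qa cells, some genes of tissue and monocyte-derived macrophages were higher than in the DPBS WT alveolar macrophage-like cells. Many of the C1qa cells lacked them: H2-Ab1 was found in 64.6%, Ccr2 in 36.5% and C1qa in 28.6%. H2-Ab1, a chain of MHC class II, was 5986 CPM in them against 141 CPM in DPBS WT, C1qa 569 CPM against 0.324 CPM, and the monocyte chemokine receptor gene Ccr2 319 CPM against 6.72 CPM. Of the groups compared they had the highest Ccl24 (2566 CPM, found in 34.9% of them) and Retnla (1484 CPM, in 19.3%), beside 4268 CPM of Retnla in the interstitial macrophage-like class of Papain WT, and Mmp12 was 2040 CPM. Mki67, a proliferation gene, had a lower level in all 3 groups: 12.6, 16.1 and 10.5 CPM in the Fbp1, Apoe and C1qa cells. It was 68.0 CPM in DPBS WT and 59 CPM in the Papain WT cells that were alveolar macrophage-like in both clusterings. The share of cells with Mki67 was not low in all 3 groups. It was found in 14.8% of the Apoe cells, close to 16.3% of the DPBS WT cells. In the Fbp1 and C1qa cells it was found in 7.27% and 5.21%.

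**Figure D2:**
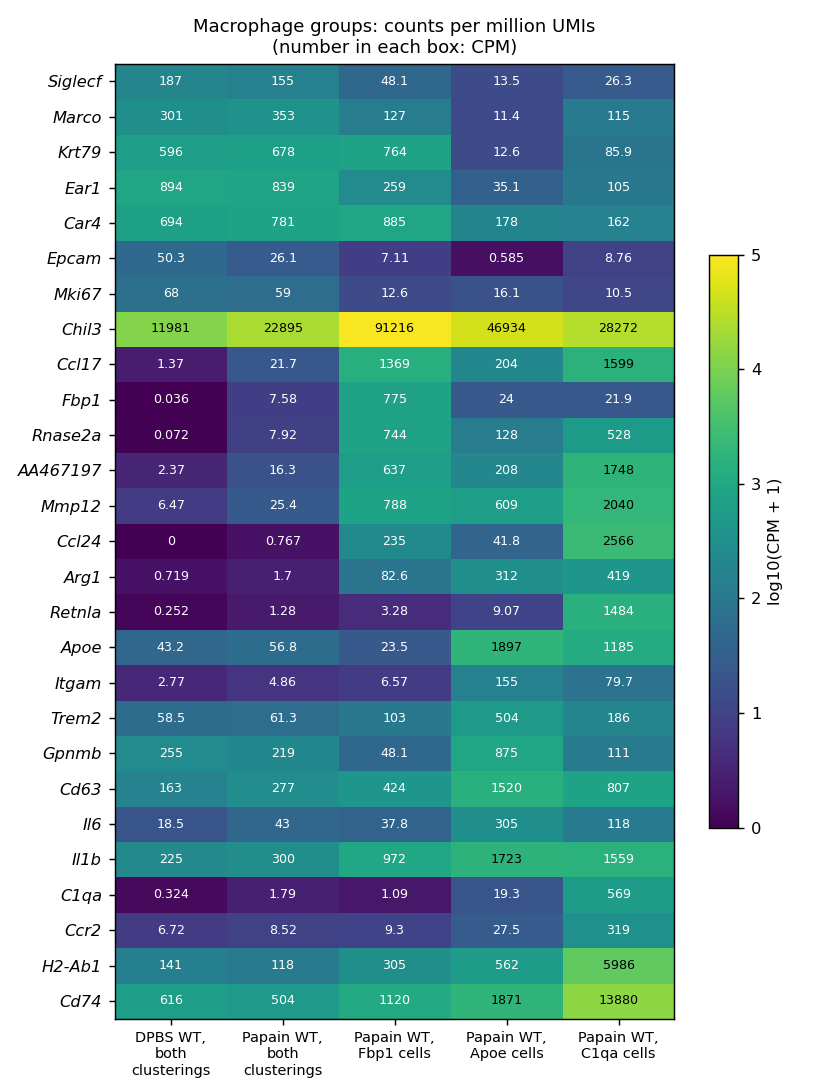
CPM (number and colour of each box, the colour on a log10 scale) of 1 gene a row in macrophage-like cells of the WT libraries, by group; columns are the cells that were alveolar macrophage-like in both clusterings (DPBS, Papain) and the Fbp1, Apoe and C1qa cells of Papain. Chil3 is higher in every Papain column, Siglecf and Marco are lowest in the Apoe and C1qa cells, and Ccl24 and Retnla peak in the C1qa cells.

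Outside these groups the differences were smaller. Within the cells that were alveolar macrophage-like in both clusterings, Chil3 was higher by 0.93 [0.93, 0.94] on the log2 scale, Ccl17 by 3.99 [3.5, 4.52], AA467197 by 2.78, Mmp12 by 1.97, Igf1 by 1.39, Il6 by 1.22 and Cd63 by 0.77, while Epcam was lower (-0.95). H2-Ab1, which was 1.03 higher in the whole class, was lower here (-0.26 [-0.35, -0.17]), and Apoe was higher by 0.40. Of 7 genes that led the class (Fbp1, Rnase2a, AA467197, Mmp12, Ccl24, Ccl17 and Arg1), 4 or more had a UMI in 145 of 1087 Papain WT cells (13.3%) and in 1 of 1453 DPBS WT cells. Of these 145 cells, 66 were Fbp1 cells, 40 Apoe cells and 34 C1qa cells. The 7 genes were picked from the differences in these same cells, so the split follows from that choice and tests nothing. In the KO pair, 4 or more had a UMI in 10 of 1249 DPBS cells and 3 of 562 Papain cells. Other cell types' markers moved in the class too: interstitial macrophage markers summed to 26.0 CPM in DPBS WT and 98.9 CPM in Papain WT, B cell markers to 42.3 and 138 CPM, and plasma cell markers to 2.72 and 106 CPM. Their part in the differences was not tested. Free RNA gives a background here: Chil3 was 66.5 and 103 CPM in B-like cells, a type that should lack it.

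The counts of the other gene lists in alveolar macrophage-like cells stand beside 3.27% of all measured genes higher and 0.603% lower, and no list had a member at least 2-fold lower. The identity list, which holds surfactant-handling and air-space genes, had 0 of 23 members past 2-fold and a median of -0.19, with Siglecf at -0.74 and Marco at -0.23. Among cells that were alveolar macrophage-like in both clusterings, Siglecf was at -0.27 and Marco at 0.23. Interferon-stimulated genes had 8 of 18 higher and 0 lower (median 0.84), among them Ifit1 (log2 2.72) and Rsad2 (1.87), although at under 5 CPM each. Inflammatory mediators had 6 of 18 higher, including Il6 (18.4 to 93.8 CPM, log2 2.35), Il1b (226 to 654 CPM, 1.53), the activin subunit Inhba (3.41) and Ptgs2, which makes prostaglandins (3.25). In the cells that were alveolar macrophage-like in both clusterings these ratios were smaller, with Il6 at 1.22, Inhba at 1.13, Il1b at 0.41, Ptgs2 at 0.245 and Rsad2 at -0.24. Chemokine ligands had 5 of 18 higher, MHC class II genes 3 of 10 (median 0.70), Fc and complement receptors 3 of 12, prostaglandin and leukotriene synthesis genes 3 of 11, and lipid handling 1 of 19, which was Apoe. Cell cycle genes had 0 of 20 past 2-fold, but 19 of 20 lay below 0 (median -0.41).

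Interstitial macrophage-like cells, 47 and 116 in number, had 161 of 5676 measured genes higher (2.84%) and 112 lower (1.97%). Of the alternative activation list, 7 of 14 were higher and 0 lower (median 1.13). Ccl24 went from 17.1 to 1193 CPM (log2 6.12 [5.37, 6.99]), Ccl17 from 244 to 1177 CPM (2.27 [2.06, 2.49]), Arg1 from 3.67 to 123 CPM (5.06), and Ccl22, a second CCR4 ligand, from 1 UMI to 166 UMIs (6.23). Retnla was already high in DPBS WT and was not higher in Papain WT (6093 and 4268 CPM, log2 -0.51). Chil3 went from 40.4 to 1641 CPM, but 1670 of its 2967 UMIs lay in 1 cell. Rnase2a (9.80 to 253 CPM, log2 4.69), the coagulation factor genes F10 (14.7 to 220 CPM, 3.90) and F7 (3.95), the fatty acid-binding protein gene Fabp5 (66.1 to 488 CPM, 2.88) and Mmp19 (3.34) were also higher. Lower genes included the transcription factors Klf2 (985 to 362 CPM, log2 -1.44 [-1.59, -1.29]) and Jun (1416 to 562 CPM, -1.33), and Pmp22 (-1.46). Chemokine ligands were split, with 5 of 20 higher (Cxcl9 and Cxcl10 among them) and 4 lower (Ccl5, Ccl7, Cxcl13 and Pf4). Tnf (log2 -1.33) and Il1a (-1.19) were lower while Il1rn, the antagonist of IL-1, was higher (1.65). The class also differed in other cells' markers: B cell markers summed to 987 CPM in DPBS WT and 335 CPM in Papain WT, and alveolar macrophage markers to 52.7 and 299 CPM. Bank1 and Ebf1, genes of B cells, were lower by -1.71 and -1.66, and the part of such cells in these values was not tested.

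Conventional DC type 2-like cells (41 and 83) had 150 of 4533 genes higher (3.31%) and 94 lower (2.07%). The CCR4 ligands led the pathway genes: Ccl17 went from 517 to 2625 CPM (log2 2.34 [2.19, 2.51]) and Ccl22 from 69.5 to 602 CPM (3.11). Of the maturation list, 5 of 12 were higher and 0 lower (median 0.73), namely both chemokines, the costimulatory genes Cd40 (40.6 to 183 CPM, log2 2.17) and Cd80 (57.9 to 142 CPM, 1.29), and Cd274, which encodes PD-L1 (33.3 to 103 CPM, 1.62). Ccr7, the lymph node homing receptor, was 278 and 250 CPM. Genes outside the lists included Plet1 (log2 4.11), the calcitonin receptor partner Ramp3 (18.8 to 203 CPM, 3.43), the water channel Aqp3 (3.60), E-cadherin Cdh1 (3.84) and the syndecan Sdc4 (46.4 to 385 CPM, 3.05). Early response genes were lower, with 6 of 21 at least 2-fold lower and 0 higher (median -0.64). Among them were Fos (1645 to 432 CPM, log2 -1.93 [-2.08, -1.79]), Egr1 (416 to 145 CPM, -1.52) and Atf3 (1305 to 523 CPM). Eicosanoid enzymes were lower too, with 3 of 6 (median -1.17): Ptgs2 (220 to 50.7 CPM, -2.12), Alox5, 5-lipoxygenase (52 and 7 UMIs, -3.89), and Hpgd, which degrades prostaglandins (-1.98). The class also held alveolar macrophage markers at 29.0 CPM in DPBS WT and 247 CPM in Papain WT, epithelial markers at 95.6 and 283 CPM, and plasma cell markers at 18.8 and 1517 CPM. Plet1 is itself among the alveolar macrophage markers and Cdh1 among the epithelial ones. The part of other cells was not tested. Ccl24 had 0 and 337 UMIs, 162 of them in 1 cell.

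Type 1-like DCs (23 and 45 cells) had 87 of 3052 genes higher (2.85%) and 43 lower (1.41%). Odc1, the first enzyme of polyamine synthesis, went from 208 to 523 CPM (log2 1.33 [0.99, 1.68]), Gcnt2 from 35.8 to 155 CPM (2.12) and the cAMP-response factor Crem from 31.1 to 110 CPM (1.82). Xlr (191 to 60.4 CPM, log2 -1.66), the NF-kB cofactor Nfkbiz (-1.37) and Marcksl1 (-1.2) were lower. Other cells' markers moved in this class as well: erythroid markers summed to 0 CPM in DPBS WT and 370 CPM in Papain WT, neutrophil markers to 9.56 and 222 CPM, B cell markers to 11.9 and 161 CPM, and T cell markers to 325 and 120 CPM. Their part was not tested. Mature DC-like cells (19 and 48) had Ccr7 at 3914 and 3633 CPM, and Ccl17 was 2002 and 3564 CPM.

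Neutrophil-like cells had 66 of 3007 genes higher (2.19%) and 28 lower (0.931%). Wfdc17 went from 170 to 1795 CPM (log2 3.40 [3.06, 3.76]), and was found in 18.5% and 73.2% of the cells. The metalloreductase Steap4 (35 to 266 CPM, 2.92), the interferon-induced membrane protein Ifitm1 (1189 to 5118 CPM, 2.11), Igfbp6 (2.51) and Lrg1, a glycoprotein of activated neutrophils (427 to 1004 CPM, 1.24), were higher. The chemokine genes Ccl4 (538 to 194 CPM, log2 -1.47 [-1.74, -1.2]) and Ccl3 (564 to 211 CPM, -1.42) were lower, and made up the 2 of 16 ageing and activation genes past 2-fold. Il1b (19849 and 16755 CPM), Cxcl2 (12725 and 11795 CPM) and S100a9 (58863 and 59176 CPM) differed little. Of 13 granule genes, 3 were higher and 0 lower, but these (Camp, Ltf and Ngp) rested on a single Papain WT cell that held 146 of 146, 134 of 146 and 307 of 329 UMIs. MHC class II genes were lower in 2 of 4 (Cd74 and H2-Ab1, median -1.02), at levels of 464 and 195 CPM for Cd74 against 7530 CPM in DPBS WT classical monocyte-like cells.

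Classical monocyte-like cells had 122 of 7227 genes higher (1.69%) and 47 lower (0.65%). Prtn3, a protease of early myeloid cells, went from 10.7 to 95.1 CPM (log2 3.15 [2.51, 3.86]) and was found in 8.62% and 50.9% of cells. The matrix proteoglycan Vcan (36.8 to 141 CPM, 1.94), Jdp2 (1.87), the guanine deaminase Gda (201 to 443 CPM, 1.14), Wfdc17 (199 to 451 CPM, 1.18) and the complement receptor C5ar1 (17.4 to 63.9 CPM, 1.88) were higher. MHC class II genes lay below 0 in 7 of 7, with Cd74 past 2-fold (7530 to 3737 CPM, log2 -1.01 [-1.04, -0.98]) and H2-Ab1 just short of it (1784 to 958 CPM, -0.90). Of the monocyte-to-macrophage list, 3 of 17 were higher (Vcan, C1qa and C1qc) and 0 lower. Chemokine ligands were higher in 3 of 11, Cxcl2 (195 to 539 CPM, 1.46), Cxcl3 and Cxcl10, and lower in 1, Ccl5. Neutrophil markers summed to 172 CPM in DPBS WT and 587 CPM in Papain WT within the class, and their part was not tested. Of its 2 clusters, the larger went from 120 to 150 cells and the other from 54 to 125.

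Few genes of nonclassical monocyte-like cells differed, with 31 of 7431 higher (0.417%) and 40 lower (0.538%). The nuclear corepressor Nrip1 went from 58.7 to 159 CPM (log2 1.44). Aif1 (170 to 63.2 CPM, -1.43) and the actin-capping Capg (-1.27) were lower. Interferon-stimulated genes lay below 0 in 18 of 19 (median -0.46). S100a9, a neutrophil gene, had 420 and 53.7 CPM, but 243 of its 1236 DPBS WT UMIs were in 1 cell, and its ratio was 0.13 instead of -2.96 when cells had to hold more than 500 genes and under 10% mitochondrial UMIs.

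**Figure D3:**
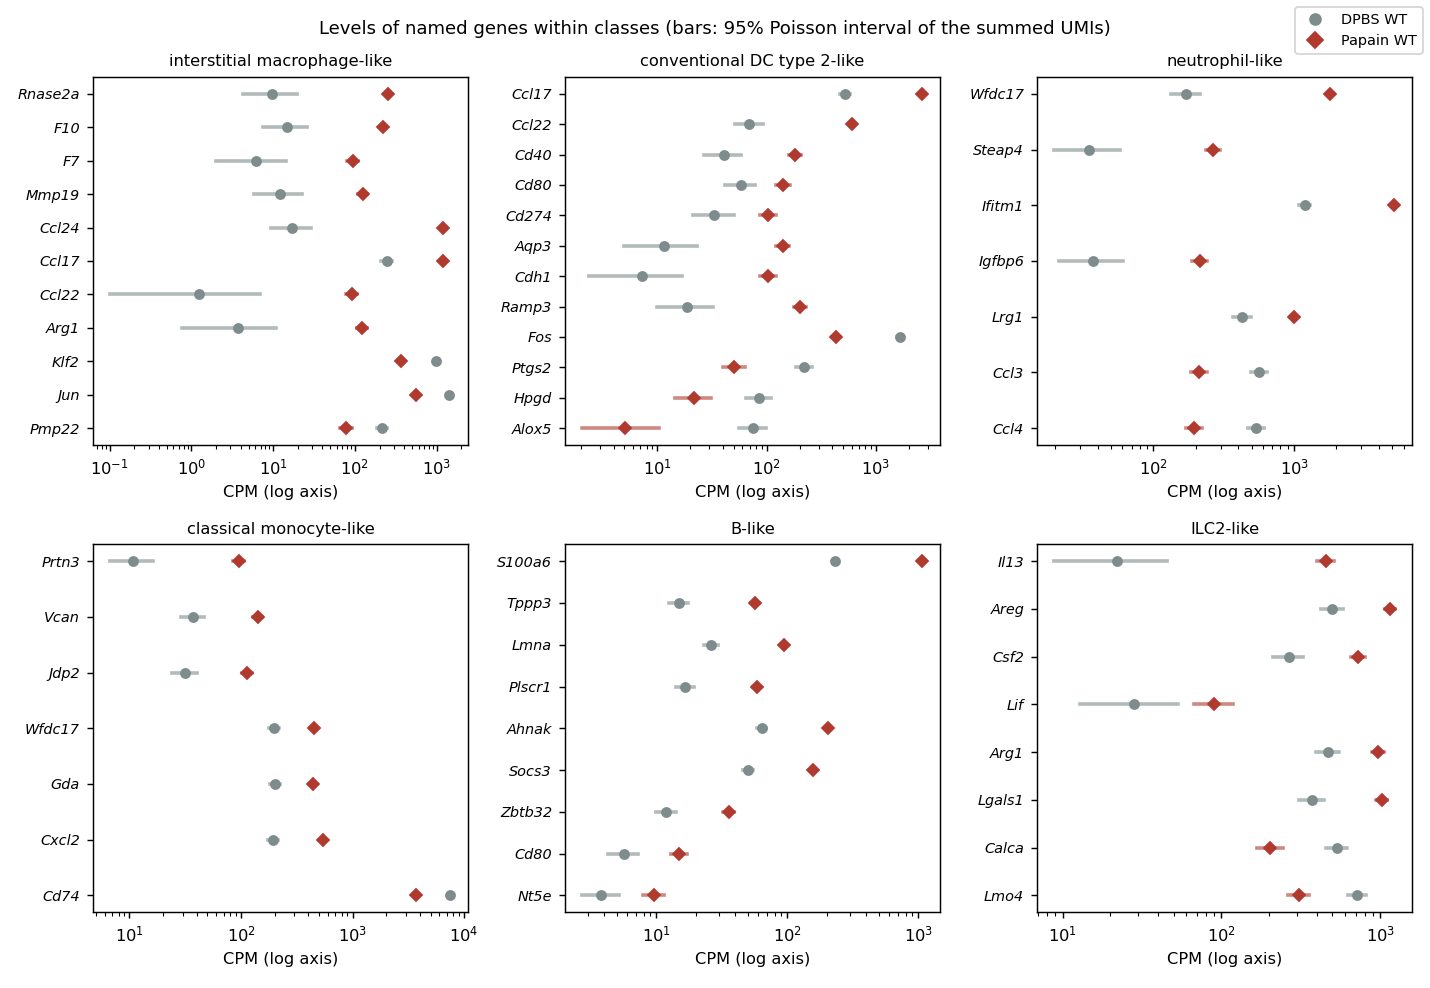
Level of named genes in DPBS WT and Papain WT (log axis, CPM of the class, 1 library a group), with a panel for each of the myeloid and lymphoid classes; bars are exact 95% Poisson intervals that cover counting error only. Ccl24 and Arg1 lie far apart in interstitial macrophage-like cells, Wfdc17 in neutrophil-like cells and Il13 in ILC2-like cells.

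B-like cells were as frequent in both libraries but differed in make-up. A cluster marked by S100a6 went from 103 cells (4.52% of the class) to 213 cells (10.0%), log2 1.07 [0.73, 1.43], while the largest DPBS WT cluster went from 1251 to 848 cells. Across the class 160 of 9746 genes were higher (1.64%) and 33 lower (0.339%). S100a6, a calcium-binding protein, went from 231 to 1072 CPM (log2 2.21 [2.15, 2.28]) and was higher both inside the cluster (1.13) and outside it (1.96). Lmna, nuclear lamin A (1.85), Ahnak (1.67), the cytokine-signalling inhibitor Socs3 (1.65) and Plscr1 (1.82) followed. The number of genes past 2-fold in either direction was 106 without that cluster and 193 with it. Memory-linked Zbtb32 (11.9 to 35.9 CPM, log2 1.59), Cd80 (1.4) and Nt5e, CD73 (1.33), were the 3 of 19 follicular and memory genes that were higher. Inside the S100a6 cluster their log2 ratios were 0.361, 0.365 and 0.969, and outside it 2.837, 1.171 and 0.944. Zbtb32 lay mostly in that cluster, at 94.5 and 121 CPM against 0.774 and 5.5 CPM outside it. Of 20 activation genes only Cd80 passed 2-fold, of 7 germinal centre genes only Basp1, of 11 cell cycle genes only Pclaf, and of 19 interferon-stimulated genes only Gbp2. Fcer2a, the low-affinity IgE receptor CD23, was lower by less than 2-fold (534 to 314 CPM, log2 -0.76). Erythroid markers summed to 3.12 CPM in DPBS WT and 771 CPM in Papain WT B-like cells. Antibody genes in B-like cells mostly rested on single cells: 10241 of 10590 Igha UMIs and 2427 of 2523 Jchain UMIs of Papain WT lay in 1 cell.

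In the few plasma-like cells (6 and 23), Igha was 11625 CPM and 40882 CPM, but was found in only 16.7% and 56.5% of them. Jchain, the joining chain of secreted IgA and IgM, was 25013 and 45903 CPM. Ighg2c had 0 UMIs in DPBS WT and 3608 in Papain WT, 2221 of which were in 1 cell. Ighm was high in both (100756 and 118119 CPM). Ighg1 and Ighe had no UMI in these cells.

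ILC2-like cells did not differ in share beyond counting error but differed in cytokine genes. They had 69 of 2292 genes higher (3.01%) and 17 lower (0.742%). Il13 went from 7 UMIs (21.9 CPM) in DPBS WT to 257 UMIs (454 CPM) in Papain WT, log2 4.37 [3.31, 5.70], and was found in 7.25% and 23.5% of the cells. Il5, which sustains eosinophils, was 81.4 and 129 CPM, and its interval reached 0. Areg, an epidermal growth factor receptor ligand of tissue repair (501 to 1156 CPM, log2 1.21), Csf2, GM-CSF (266 to 727 CPM, 1.45), Lif (1.68) and Arg1 (467 to 973 CPM, 1.06) completed the 5 of 27 effector genes that were higher. Calca, which encodes the neuropeptide CGRP, was lower (532 to 203 CPM, -1.39 [-1.75, -1.04]). Receptor and identity genes stayed within 2-fold, with Il1rl1, the IL-33 receptor, at 413 and 542 CPM and Gata3 at 723 and 667 CPM. The cytoskeletal genes Flna (1.84) and Anxa2 (1.77), Lgals1 (373 to 1026 CPM, 1.46) and the calcium channel Itpr1 (1.93) were higher, and the transcription regulator Lmo4 was lower (714 to 309 CPM, -1.21). Basophil markers summed to 222 CPM in the DPBS WT class and 1.77 CPM in Papain WT, and mast cell markers to 993 and 113 CPM. Their part was not tested.

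NK-like cells were less frequent, while their cytotoxic genes stayed within 2-fold. They had 36 of 3334 genes higher (1.08%) and 30 lower (0.9%). Gzma (6884 and 6868 CPM), Gzmb (1016 and 993 CPM) and Prf1, perforin (783 and 1000 CPM), differed little, and of 28 NK effector and receptor genes 1 was higher, Ccl4 (995 to 2216 CPM, log2 1.16 [1.01, 1.30]). Heat shock genes Hsph1 (184 to 453 CPM, 1.30) and Dnajb1 (340 to 751 CPM, 1.14) were among 4 of 20 early response and heat shock genes that were higher. Ly6c2 (235 to 560 CPM, 1.25) and the IL-21 receptor Il21r (1.37) were higher too, and Sp140, a chromatin reader of immune cells, was lower (60 and 5 UMIs, -2.15). T cell markers summed to 743 CPM in DPBS WT and 1045 CPM in Papain WT in the class, ILC2 markers to 129 and 246 CPM and classical monocyte markers to 530 and 809 CPM. Cd3e, a chain of the T cell receptor complex, was found in 0.633% and 12.5% of the cells. The part of other cells was not tested.

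CD8 T-like cells had 147 of 8877 genes higher (1.66%) and 28 lower (0.315%). Effector genes were higher in 8 of 20 of the NK and cytotoxic list (median 0.89), with Gzmb from 29.9 to 67.3 CPM (log2 1.17), Ifng from 25.2 to 56.6 CPM (1.17 [0.91, 1.43]) and Ccl4 from 22.3 to 58.2 CPM (1.39). Cell cycle genes were higher in 8 of 20 (median 0.89), with Mki67 at 20.9 and 46.9 CPM, and a cluster with high Mki67 held 11 and 19 of the cells. Outside that cluster, Gzmb was still higher by 1.29 [0.88, 1.71] and Ifng by 1.67, on the log2 scale. Inside it Mki67 differed by -0.04 [-0.35, 0.26], Gzmb by -0.05 [-0.35, 0.25], Ifng by -1.93 [-2.63, -1.27] and Ccl4 by -2.93. Another cluster, of 174 and 177 cells, went from 17.2% to 27.0% of the class. Within that cluster Gzmb (log2 1.57), Ifng (1.23) and Ccl3 (1.04) were past 2-fold, and the other 5 of the 8 effector genes were not, Ccl4 (0.77) among them. The 18 naive and memory genes had 0 past 2-fold (median 0.27). Socs3 (53.1 to 122 CPM, 1.2), the histone gene Hist1h2ap (1.49), the integrin Itgb1 (1.11), the heat shock gene Hspa1b (1.08) and Stmn1 (1.08) were higher as well.

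Medians of 1 list differed between classes. That of MHC class II was 0.70 in alveolar macrophage-like cells, but -0.15 there when the libraries were clustered without integration. It was -1.02 in neutrophil-like, -0.90 in classical monocyte-like and -0.21 in B-like cells. MHC class I genes had 0 members past 2-fold in any of the 11 classes tallied, with medians from -0.31 to 0.18. Early response and heat shock genes lay above 0 in 19 of 20 in NK-like and 21 of 21 in CD8 T-like cells, and below 0 in 18 of 21 in type 2 DC-like and 19 of 21 in interstitial macrophage-like cells. The lists share genes (Ccl17 stands in 3 of them), so their counts are not independent.

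**Figure D4:**
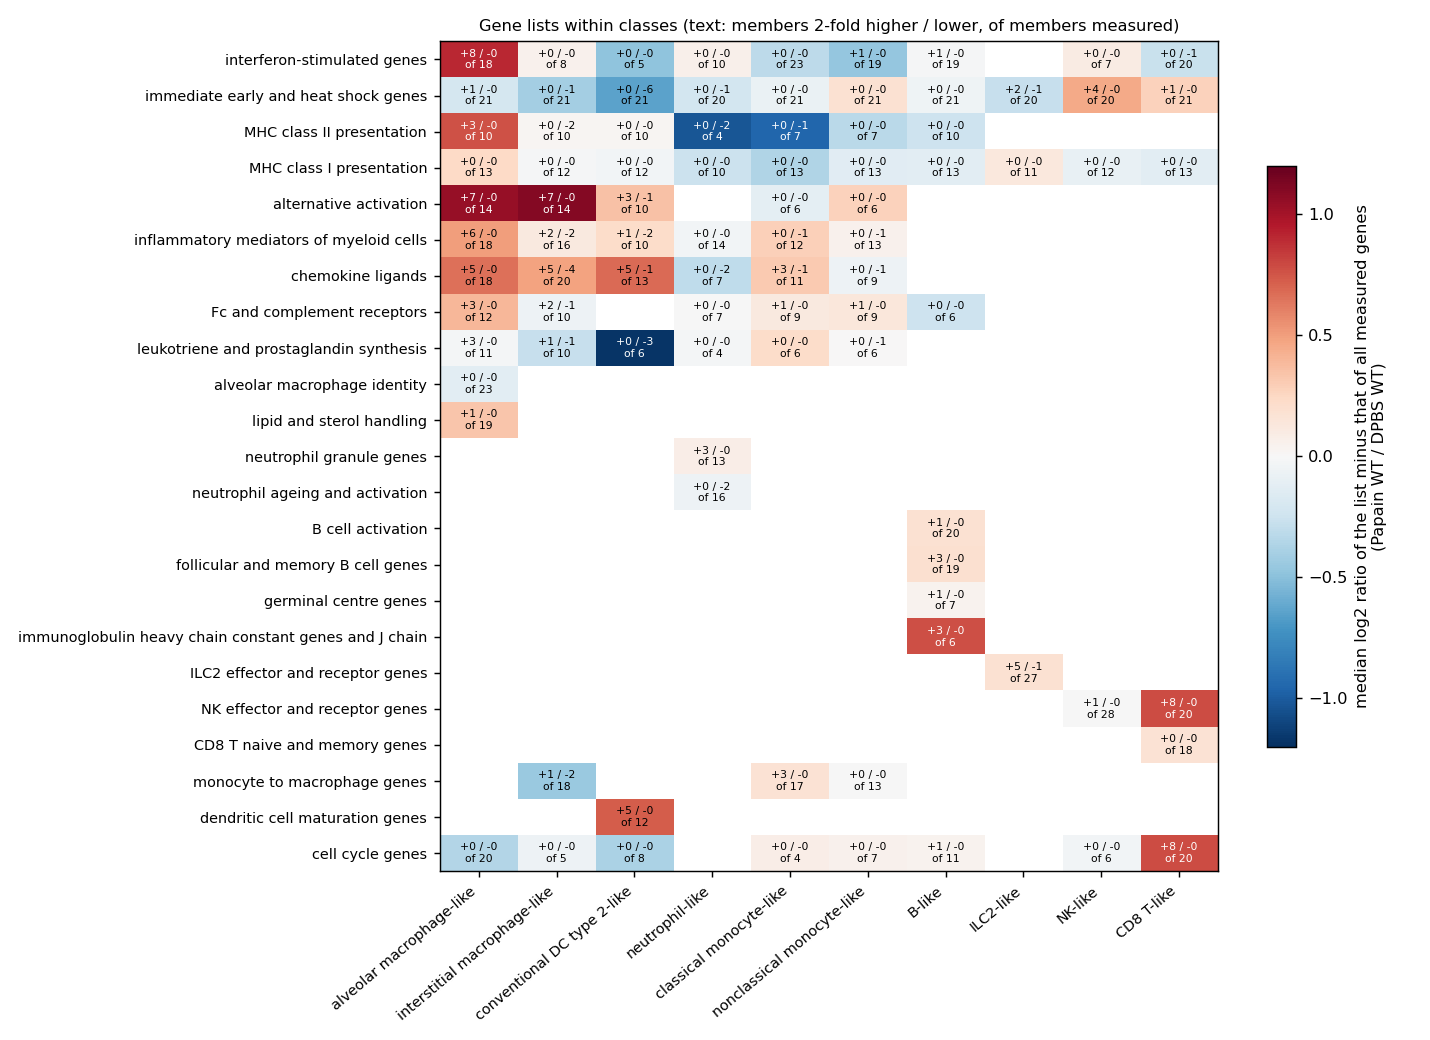
Median log2 ratio (colour; Papain over DPBS, WT, 1 library a group; minus the median of all measured genes of the class) of each gene list in each class, with the number of members at least 2-fold higher and lower over the number measured in each box. Alternative activation stands out in both macrophage-like classes, and early response genes lie below 0 in type 2 DC-like cells and above 0 in NK-like and CD8 T-like cells.

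In the KO pair, which shares no library with the WT pair, some of these differences were met and others were not. The share of neutrophil-like cells had a log2 ratio of 1.06 [0.72, 1.4] there and that of interstitial macrophage-like cells 1.04 [0.41, 1.70], beside 1.54 and 1.33 in WT. In alveolar macrophage-like cells, Apoe had 2.21 (WT 3.27), Il6 1.90 (WT 2.35) and Il1b 1.77 (WT 1.53), whereas Chil3 had -0.01 (WT 1.55) and Ccl17 0.65 (WT 7.2). The Fbp1 cells numbered 13 in DPBS KO and 1 in Papain KO, the Apoe cells 2 and 43, and the C1qa cells 78 and 9. Median ratios of the alternative activation list were 0.15 in KO and 0.98 in WT for alveolar macrophage-like cells, and those of interferon-stimulated genes 0.84 in both.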

How the data were processed

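The deposited matrices held UMI counts for each barcode and gene, and the submitters' processing notes name Cell Ranger and mm10 for them. The values deposited by the authors are raw counts of 31053 genes without normalization, and the annotation and any doublet removal are not given in the sources used here. Barcodes with more than 200 genes and under 15% mitochondrial UMIs were kept (thresholds that the study states for another of its experiments), which 8144 of 8552 barcodes passed in DPBS WT and 7994 of 8444 in Papain WT. The top-scoring barcodes by Scrublet in Scanpy 1.11.5 (531 and 511) were removed as doublets, at a share that grows with the number of barcodes.

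All 4 libraries were integrated (CCA) and clustered in Seurat 5.3.0 (R 4.3.3) on 2000 variable genes, 30 dimensions and resolution 0.8, without the listed genes, Ift20 and receptor segment genes. Clusters were scored on 22 marker lists. The scoring rule, the 70% limit on a second class, the sub-clustering of T and myeloid clusters, the cell-by-cell call of T cells, the mixed classes and the macrophage groups were set after the clusters were seen. UMIs were summed over each class, and CPM, shares and ratios were computed in Python 3.11.15 (SciPy 1.17.1) with exact 95% intervals. With 1 library a group no test was run, and no p-value was computed. The interval code was tested on simulated data.

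A gene was named if it passed 2-fold with 50 or more UMIs, reached 50 CPM, was found in at least 5% of cells, had at most 20% of its UMIs in 1 cell and at least 10% of its highest level among classes (up to 10 a direction, or 5 in classes under 100 cells, and up to 3 that failed only the last condition). Members of 23 gene lists were also named. The members and lists were chosen with earlier results of these data known. Alternatives included other filters, clusterings, TMM scaling in edgeR 4.0.16 and size factors in DESeq2 1.42.0, for which no test was run. CD4 T-like cells, the main subject of the study, are given here only as a share. Some genes that met the naming rule are not reported here.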

Additional observations from a re-analysis of the deposited data

Results flagged for a closer look

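Some results went one way in the WT pair and the opposite way in the KO pair, with both counting intervals off 0. Each side is 1 library against 1 library, so whether the pairs differ was not tested.

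The shares of 2 lymphoid classes did so. CD8 T-like cells had a log2 ratio of -0.60 in WT and 0.22 in KO, and NK-like cells -1.47 and 0.49. In CD8 T-like cells, Socs3 had 1.2 in WT and -0.31 in KO, Ccl4 1.39 and -0.38, and Gzmb 1.17 and -0.50. Lgals1 in ILC2-like cells had 1.46 and -0.98, and Ly6c2 in NK-like cells 1.25 and -0.42.

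Among macrophage-like cells, 4 genes of the alveolar class did so. Fbp1 had 11.31 in WT and -1.12 in KO, Rnase2a 9.73 and -1.12, Retnla 7.10 and -1.38, and Igf1 1.89 and -0.30. DPBS KO held 244 Fbp1 UMIs and 284 Rnase2a UMIs, against 1 and 4 in DPBS WT. Klf2 in interstitial macrophage-like cells had -1.44 and 1.13.

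DC-like cells gave several. Only genes named in the text were compared in this way, so their number does not rank the classes. In type 2-like cells, Ccl17 had 2.34 in WT and -0.45 in KO, Ccl22 3.11 and -1.34, Ramp3 3.43 and -0.71, Cd40 2.17 and -1.37, Cd80 1.29 and -0.64, and Alox5 -3.89 and 0.90. In type 1-like cells, Odc1 had 1.33 and -0.98, Crem 1.82 and -1.37, and Xlr -1.66 and 0.65.

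In classical monocyte-like cells, Cxcl2 had 1.46 in WT and -0.44 in KO, and Cd74 -1.01 and 0.39. Ccl4 in neutrophil-like cells had -1.47 and 1.39. In nonclassical monocyte-like cells, Nrip1 had 1.44 and -0.44, and S100a9 -2.96 and 3.17, where 243 of 1236 DPBS WT UMIs of S100a9 lay in 1 cell.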

How the results depend on the processing

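Shares kept their direction under every alternative run except that of gamma-delta T-like cells. Theirs was -1.78, from only 7 and 2 cells, when each cell was named from its own scores. Clustering without integration moved the log2 ratio of alveolar macrophage-like cells to -1.10, interstitial macrophage-like cells to 2.06, classical monocyte-like cells to 1.10 and nonclassical monocyte-like cells to 0.61. Resolution 1.4 gave -0.71 for alveolar and 2.04 for interstitial macrophage-like cells. Cell-by-cell names gave -0.72 for alveolar macrophage-like and 0.30 for CD4 T-like cells. Without doublet removal the alveolar class had -0.54 and the nonclassical 0.67, and with over 500 genes and under 10% mitochondrial UMIs they had -0.63 and 0.64. Clustering only the WT libraries, or dividing by B-like cells, moved none beyond its counting error.

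The number of genes past 2-fold in alveolar macrophage-like cells was 424, and became 83 without integration, 264 at resolution 1.4 and 207 with cell-by-cell names. Interstitial macrophage-like cells had 273, which became 412 without integration and 432 under the stricter filter. Cell-by-cell names gave 198 (from 130) in type 1 DC-like, 175 (from 94) in neutrophil-like, 110 (from 71) in nonclassical monocyte-like and 296 (from 193) in B-like cells. The mean of CPM over cells gave 148 in nonclassical monocyte-like and 108 (from 66) in NK-like cells. Without the S100a6 cluster, chosen after seeing the data, B-like cells had 106. Accepting genes from 10 UMIs gave 1097 in alveolar and 1097 in interstitial macrophage-like cells, 1034 in type 1 and 1238 in type 2 DC-like, 806 in neutrophil-like, 737 in classical and 524 in nonclassical monocyte-like, 745 in B-like, 1041 in ILC2-like, 932 in NK-like and 719 in CD8 T-like cells. Asking for 200 UMIs gave 177, 66, 15, 63, 13, 33, 14, 71, 13, 5 and 38 in the same order. These follow from how many genes are measured; the cause of the other moves was not tested.

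The MHC class II list in alveolar macrophage-like cells was at -0.15 without integration, and H2-Ab1 at -0.26. Chemokine ligands were at -0.19 in interstitial macrophage-like cells named cell by cell and at -0.12 in type 2 DC-like cells from 200 UMIs. Antibody genes in B-like cells were at -0.31 without integration, -0.30 in the WT libraries alone and -0.054 cell by cell. Igha there was at -1.65, -1.64 and, without its top cell, -0.0025, and Jchain at -0.94, -0.93 and, cell by cell, -2.05. S100a9 in nonclassical monocyte-like cells was at 0.13 under the stricter filter. Of 1400 values of single genes under alternatives, 297 moved beyond their counting error and 8 changed sign. TMM and size factors shifted ratios by at most 0.12 in the 11 classes with named genes.

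No paired analysis was possible because each group holds 1 library. Depth limits rare classes most: the type 1 DC-like class had 23 cells in DPBS WT, and mature DC-like cells 19.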
